A study of Mus musculus with 72 samples.

Results

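Lrtm1, Apba2, Ptgds and Ly6f are 4 of the genes that read higher at every sampled hour of the day in mouse livers labelled SIRT6 KO. Each was taken as the probe set annotated with that single symbol, out of 22180 genes with such a probe set on the array, and each has exactly 1 of them (17298126 for Lrtm1, 17478889 for Apba2, 17382592 for Ptgds and 17312229 for Ly6f). They were chosen on the difference between KO-labelled and WT livers of the SIRT6 cohort, so everything about that difference is given below as a description with no test. Mice were kept in 12 h of light and 12 h of dark, and livers were taken at ZT0, ZT4, ZT8, ZT12, ZT16 and ZT20, where ZT is zeitgeber time in hours from lights on. The SIRT6 cohort held SIRT6 KO and WT mice, both of the background labelled 129 mixed, and the SIRT1 cohort held SIRT1 KO and WT mice, both C57BL/6. Each cohort gave 36 arrays, 3 for each genotype and time, and the arrays ask which liver transcripts depend on each sirtuin over the day. The protocols call both knockouts liver-specific, without naming the promoter that drives the deletion. The labels do not give age, sex or any pooling, and nothing states that the replicates are separate mice, so the p-values cover the spread between samples, which may be technical.

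Ptgds encodes lipocalin-type prostaglandin D synthase, a secreted protein that turns prostaglandin H2 into prostaglandin D2 and also carries small lipophilic molecules. It is best known from the meninges and the cerebrospinal fluid. Apba2 encodes Mint2, an adaptor with PTB and PDZ domains that binds the amyloid precursor protein, mostly studied in neurons. Ly6f belongs to a cluster of genes for small surface proteins of the Ly6 family, which sit in the membrane by a lipid anchor, and Lrtm1 encodes a membrane protein with leucine-rich repeats. SIRT6 and SIRT1 are NAD-dependent deacylases that act on histones and other proteins.

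The 4 genes lie on different chromosomes, and the sequences around their start sites are shown because they are unlike in CpG content and share none of the patterns searched. Each window runs from 250 bases before to 50 bases after a RefSeq start site (GRCm38.p6), 5′ to 3′ on the gene's own strand, with CpG dinucleotides in capitals. Lrtm1 (chr14:29017958-29018257, plus strand) holds 4 CpG in its window. Apba2 has 2 start sites, and the one shown (chr7:64501888-64502187, plus strand) is the richer of them with 45 CpG, the other (chr7:64501456-64501755) holding 20. Ptgds (chr2:25469700-25469999, minus strand) holds 2 and Ly6f (chr15:75268171-75268470, plus strand) holds 0.
Lrtm1: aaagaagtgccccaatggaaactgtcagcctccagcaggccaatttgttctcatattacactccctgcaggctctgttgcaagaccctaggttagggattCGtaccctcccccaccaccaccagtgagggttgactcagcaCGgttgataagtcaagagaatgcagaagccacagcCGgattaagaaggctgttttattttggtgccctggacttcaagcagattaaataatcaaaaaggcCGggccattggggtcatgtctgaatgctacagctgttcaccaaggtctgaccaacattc
Apba2: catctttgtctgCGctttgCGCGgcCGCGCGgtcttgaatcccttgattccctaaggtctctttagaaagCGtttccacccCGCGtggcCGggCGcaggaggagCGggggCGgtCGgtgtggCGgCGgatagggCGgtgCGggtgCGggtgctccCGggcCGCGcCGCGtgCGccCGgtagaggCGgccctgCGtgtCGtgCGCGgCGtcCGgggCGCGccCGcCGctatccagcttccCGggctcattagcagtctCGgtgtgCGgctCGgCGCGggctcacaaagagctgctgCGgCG
Ptgds: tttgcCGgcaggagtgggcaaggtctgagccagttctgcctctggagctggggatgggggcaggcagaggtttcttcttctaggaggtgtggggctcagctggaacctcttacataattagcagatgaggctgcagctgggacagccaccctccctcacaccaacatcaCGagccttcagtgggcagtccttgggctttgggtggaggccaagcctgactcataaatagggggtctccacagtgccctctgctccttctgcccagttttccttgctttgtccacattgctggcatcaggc
Ly6f: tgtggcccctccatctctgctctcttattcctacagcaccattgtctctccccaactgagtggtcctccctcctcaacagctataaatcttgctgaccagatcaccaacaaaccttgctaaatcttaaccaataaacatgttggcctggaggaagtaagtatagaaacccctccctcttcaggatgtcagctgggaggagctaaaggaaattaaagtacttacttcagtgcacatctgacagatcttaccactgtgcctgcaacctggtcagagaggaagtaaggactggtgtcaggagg
Over the 32851 windows of the reference table the median is 7 CpG, with quartiles of 3 and 20. Both Apba2 windows therefore lie at or above the upper quartile, Ptgds and Ly6f lie below the lower one, and Lrtm1 lies between it and the median. A search of both strands for 5 patterns found no E-box CACGTG, no ACGTG, no AGGTCA and no TTCNNNGAA in any window of the 4 genes. These occur in 7.15%, 19.6%, 16.3% and 8.30% of all windows, and every CACGTG holds an ACGTG. The pattern TATAAA, found in 13.6% of all windows, occurs in the Ly6f window at position −169 from the start site and in no window of Lrtm1, Apba2 or Ptgds.

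The Ly6f window is close to that of its cluster relative Ly6g, which bears on what a Ly6f probe set could read. The Ly6g window (chr15:75155079-75155378, plus strand, GRCm38.p6) is 87.7% identical to that of Ly6f, with 263 of its bases matched in an alignment and 37 unmatched bases in capitals here.
Ly6g: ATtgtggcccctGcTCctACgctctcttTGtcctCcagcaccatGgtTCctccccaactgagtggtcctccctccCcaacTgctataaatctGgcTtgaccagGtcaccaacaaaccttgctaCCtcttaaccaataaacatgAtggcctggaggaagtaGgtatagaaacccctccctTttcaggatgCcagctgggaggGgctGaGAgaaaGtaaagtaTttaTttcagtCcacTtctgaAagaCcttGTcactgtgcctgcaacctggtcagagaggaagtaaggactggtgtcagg
The next closest windows are those of Ly6c2 at 76.7%, Ly6a2 at 75.7% and Ly6c1 at 75.3%. Whether the Ly6f probe set also reads a relative was not tested, because probe sequences are not used here, and these windows show little of the transcribed part.

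In the SIRT6 cohort the order of the genes by KO minus WT over the day placed Lrtm1 4th, Apba2 6th, Ptgds 7th and Ly6f 8th among the 374 genes past the threshold and higher at all 6 times. The values run on without a break, from 1.81 on the log2 scale for Ly6f just inside to 1.79 for Gsn and 1.75 for Lama3 just outside. All values are log2(intensity + 16) of the deposited intensity, so the difference of a dim gene understates its change. Of 13308 genes tested over the day with limma, 3.39% were called higher and 3.22% lower in KO-labelled livers at an adjusted p under 0.05, and 5.88% had the higher KO-labelled mean at all 6 times. The calls split into 451 higher and 429 lower genes, and into 288 higher and 579 lower with array medians centred. These shares are given as the background of the choice, from which nothing is read about the 4 genes. The share of genes with no overlap at a single time was not counted, so overlaps by time are described only.

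Lrtm1 averaged 10.05 ± 0.32 in KO-labelled arrays and 8.03 ± 0.83 in WT arrays of the SIRT6 cohort (SD, n = 18 each), a difference of 2.02 ± 0.22 (SE) or 4.06-fold. The KO-labelled arrays ran from 9.30 through a median of 10.13 to 10.53, against 6.79, 7.92 and 9.46 in WT arrays. In intensity units the medians were 1101 and 227 in KO-labelled and WT arrays. The KO-labelled livers thus formed a narrow band and the WT livers a wide one, with 17 of 18 KO-labelled arrays above the highest WT array.

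At ZT0 Lrtm1 read 10.16, 10.27 and 10.14 in KO-labelled livers, against 8.99, 7.06 and 7.16 in WT livers. At ZT4 Lrtm1 read 9.85, 10.11 and 10.24 in KO-labelled livers, against 7.22, 9.46 and 8.75 in WT livers. At ZT8 it read 10.26, 9.76 and 9.49, against 8.88, 6.79 and 8.55 in WT livers. In each of these light-phase groups the 3 KO-labelled arrays lay above the 3 WT arrays, and the WT arrays spread over more than 1 log2 unit. At ZT12 Lrtm1 read 9.30, 10.19 and 10.08 in KO-labelled livers, against 7.42, 8.36 and 7.96 in WT livers. At ZT16 the KO-labelled values were 10.06, 9.91 and 10.38, against 8.77, 7.83 and 7.89 in WT livers. At ZT20 they were 9.75, 10.44 and 10.53, against 7.01, 8.94 and 7.47 in WT livers. No time point showed an overlap, and the difference ran between 1.59 at ZT4 and 2.45 at ZT0.

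Apba2 averaged 7.56 ± 0.38 in KO-labelled arrays and 5.62 ± 0.56 in WT arrays (SD, n = 18 each), a difference of 1.94 ± 0.15 (SE) or 3.85-fold. Its lowest, median and highest values were 6.97, 7.59 and 8.35 in KO-labelled arrays, against 4.81, 5.56 and 6.63 in WT arrays. Median intensities were 176 in KO-labelled and 31.1 in WT arrays. All 18 KO-labelled arrays lay above all 18 WT arrays, with a gap of 0.34 between the sets, as in 10 of the 13308 genes (0.0751%), and 1 gene had all KO-labelled arrays below (0.00751%). Of the WT arrays, 13 read under the level of 6.00 below which genes were left out of the tests, so Apba2 entered the tests through its KO-labelled arrays.

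At ZT0 Apba2 read 7.29, 7.63 and 7.93 in KO-labelled livers, against 5.63, 6.36 and 5.52 in WT livers. At ZT4 the values were 7.96, 7.37 and 7.47 in KO-labelled livers, against 6.63, 4.88 and 5.60 in WT livers. At ZT8 Apba2 read 6.97, 7.58 and 7.15 in KO-labelled livers, against 5.61, 5.24 and 5.62 in WT livers. The sets stayed apart at each of these times, with the lowest KO-labelled group mean of the day at ZT8. At ZT12 Apba2 read 7.82, 7.00 and 7.06 in KO-labelled livers, against 5.47, 4.81 and 4.91 in WT livers. At ZT16 it read 7.73, 7.95 and 7.47, against 6.31, 6.08 and 5.48 in WT livers. At ZT20 it read 8.35, 7.60 and 7.80, against 6.54, 5.32 and 5.12 in WT livers. The difference was the steadiest of the 4 genes over the day, between 1.74 at ZT8 and 2.26 at ZT20.

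Ptgds averaged 9.24 ± 1.53 in KO-labelled arrays and 7.41 ± 0.91 in WT arrays (SD, n = 18 each), a difference of 1.83 ± 0.39 (SE) or 3.57-fold. The KO-labelled arrays ran from 5.24 through 9.61 to 11.40, against 5.45, 7.27 and 8.84 in WT arrays. In intensity units the KO-labelled arrays spanned 21.8 to 2689 with a median of 768, against 27.6 to 443 with a median of 139 in WT arrays. Only 11 of 18 KO-labelled arrays lay above the highest WT array, and the KO-labelled set held both the highest and the lowest value of the cohort.

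At ZT0 Ptgds read 8.10, 10.28 and 8.09 in KO-labelled livers, against 7.10, 7.02 and 7.83 in WT livers. At ZT4 Ptgds read 10.20, 10.09 and 11.36 in KO-labelled livers, against 7.05, 8.84 and 7.39 in WT livers. At ZT8 the KO-labelled livers gave 8.26, 8.25 and 8.27, against 7.19, 6.85 and 7.06 in WT livers. The groups did not overlap at these times, and ZT8 had the closest replicates. At ZT12 Ptgds read 5.24, 10.82 and 9.53 in KO-labelled livers, against 7.36, 8.31 and 7.76 in WT livers. Its first replicate there was the lowest KO-labelled array and the others lay above all 3 WT arrays. The ZT12 difference of 0.72 was 2.37 without that replicate and −0.42 without the second replicate, so single arrays set it. At ZT16 Ptgds read 7.79, 9.09 and 9.69 in KO-labelled livers, against 8.67, 8.41 and 6.18 in WT livers, and the groups overlapped. At ZT20 the values were 9.71, 10.24 and 11.40 in KO-labelled livers, against 6.47, 8.46 and 5.45 in WT livers. That time gave the widest difference of the day, 3.66 or 12.6-fold, and ZT12 the narrowest.

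Ly6f averaged 7.72 ± 0.81 in KO-labelled arrays and 5.90 ± 0.31 in WT arrays (SD, n = 18 each), a difference of 1.81 ± 0.20 (SE) or 3.52-fold. Its lowest, median and highest values were 6.67, 7.48 and 9.44 in KO-labelled arrays, against 5.38, 5.94 and 6.45 in WT arrays. Median intensities were 163 in KO-labelled and 45.5 in WT arrays. As for Apba2, the 2 sets of 18 arrays did not overlap, here with a gap of 0.22, and 13 of the WT arrays read under the 6.00 level. Ly6f too entered the tests through its KO-labelled arrays. Ly6f was spread in KO-labelled and narrow in WT livers, the opposite of Lrtm1.

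At ZT0 Ly6f read 7.92, 7.48 and 8.62 in KO-labelled livers, against 6.33, 6.10 and 5.96 in WT livers. At ZT4 Ly6f read 8.88, 6.98 and 6.67 in KO-labelled livers, against 5.62, 5.45 and 5.97 in WT livers. At ZT8 the values were 6.98, 7.43 and 7.27 in KO-labelled livers, against 5.62, 5.93 and 6.29 in WT livers. The difference was narrowest at ZT8, at 1.28. At ZT12 Ly6f read 8.22, 6.92 and 7.00 in KO-labelled livers, against 5.65, 5.95 and 5.38 in WT livers. At ZT16 it read 7.98, 8.66 and 6.76, against 5.89, 6.20 and 5.56 in WT livers. At ZT20 it read 9.44, 7.49 and 8.19, against 6.00, 6.45 and 5.90 in WT livers. ZT20 had the widest difference, 2.26, and the groups were apart at all 6 times.

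**Figure D1:**
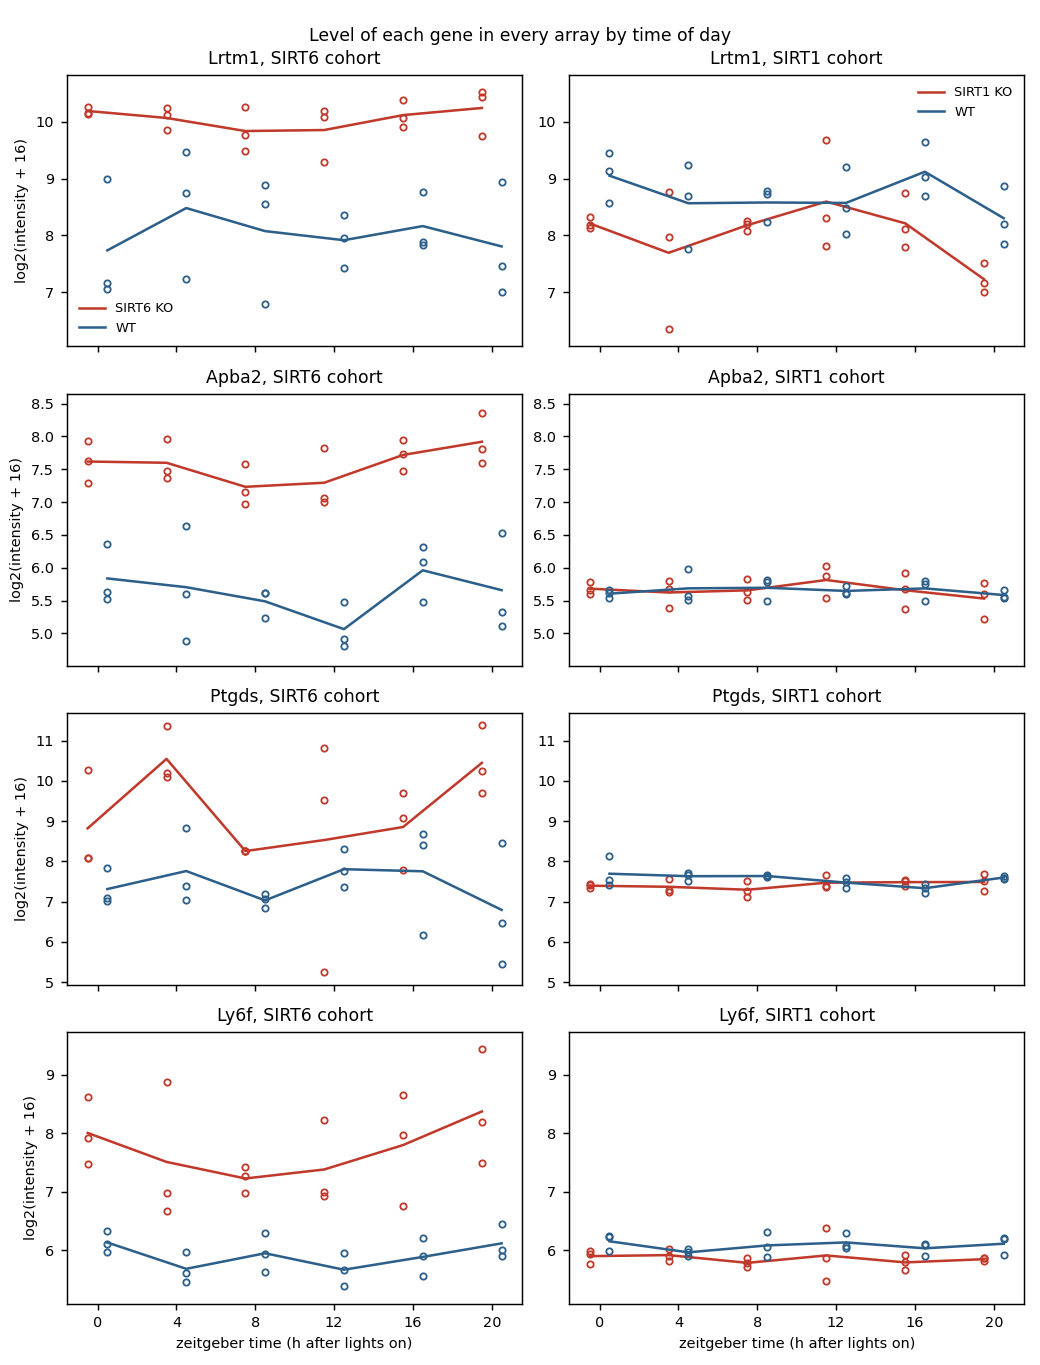
Level of Lrtm1, Apba2, Ptgds and Ly6f, as log2(intensity + 16), in every array (points) and as the mean of 3 arrays (lines) against zeitgeber time, with the SIRT6 cohort on the left, the SIRT1 cohort on the right, KO-labelled livers in red and WT livers in blue. In the SIRT6 cohort the KO-labelled and WT points overlap for Ptgds alone, at ZT12 and ZT16, if the times are read one by one, and in the SIRT1 cohort the lines of Apba2 and Ptgds stay within 0.34 of each other.

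With no further normalization, no 24 h rhythm of the 4 genes passed the test in any set of 18 arrays. The test was limma's moderated F of a 24 h cosine, adjusted over all 13308 genes within each set, and 0 of the 16 gene and set combinations passed at 0.05, with 2 at an unadjusted p under 0.05. Among all genes 10.6% passed in KO-labelled and 10.1% in WT livers of the SIRT6 cohort, and 23.2% and 18.3% in KO-labelled and WT livers of the SIRT1 cohort. The lowest adjusted p of the 16 was 0.131 for Apba2 in KO-labelled livers of the SIRT6 cohort, where the fitted peak minus trough was 0.62 with a peak at ZT20.7. Ly6f had a fitted peak minus trough of 1.09 there, with a peak also at ZT20.7 (adjusted p = 0.287), and Lrtm1 one of 0.43 at ZT21.5 (adjusted p = 0.296). Ptgds had the largest fitted value, 1.52, but its arrays of a single time differed by 1.43 (pooled SD), and its adjusted p was 0.553. In WT livers of the SIRT6 cohort the lowest adjusted p was 0.354, for Ly6f. There 13 of the 18 arrays read under the 6.00 level for Apba2, and 13 for Ly6f. In the SIRT1 cohort 17 KO-labelled and 18 WT arrays did so for Apba2, and 16 and 6 for Ly6f. Levels this low limit what a rhythm test of these genes could find. With quantile normalization the rhythm of Apba2 in SIRT6 KO-labelled livers passed (0.65, limma adjusted p = 0.041). A difference in rhythm between the genotypes rests on the differences that chose the genes and was not tested.

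The SIRT1 cohort was not used in the choice, so the 4 genes were tested there. Apba2 and Ly6f had entered the tests through their KO-labelled arrays of the SIRT6 cohort. None of the 4 genes was called higher in livers labelled SIRT1 KO, and Lrtm1 and Ly6f were called lower. Over all genes 2.27% were called, 1.06% higher and 1.21% lower, in KO-labelled livers of this cohort. That is 141 higher and 161 lower genes, against 663 higher and 103 lower with array medians centred. Lrtm1 averaged 8.02 ± 0.73 in KO-labelled and 8.70 ± 0.54 in WT livers (SD, n = 18 each), and ran from 6.34 through 8.12 to 9.68 in KO-labelled livers, against 7.75, 8.71 and 9.64 in WT livers. The sets overlapped widely, with 16 of 18 KO-labelled arrays under the WT mean of their time. Its difference was −0.68 ± 0.18 (SE), with a 95% interval of −1.05 to −0.30 (limma adjusted p = 0.045). Ly6f averaged 5.86 ± 0.18 in KO-labelled and 6.08 ± 0.14 in WT livers, from 5.47 through 5.86 to 6.39 in KO-labelled livers and 5.88, 6.06 and 6.31 in WT livers. It differed by −0.22 ± 0.06 (SE; limma adjusted p = 0.043), and its intensities lay near the level of 6.00, with 16 KO-labelled and 6 WT arrays under it. Both calls were weak, since leaving out 1 array ended that of Lrtm1 for 27 of the 36 arrays and that of Ly6f for 23. In the same cohort 0 of 10 Kupffer cell markers were above 0, with a median of −0.12, against −0.0017 over all tested genes. The share of all genes above 0 was not counted. The log2 summed intensity of these markers was 10.54 to 12.41 in KO-labelled and 11.15 to 12.55 in WT arrays. None of these markers was called (1 at an unadjusted p under 0.05), and the hepatocyte marker Serpina1a was lower, at −0.12 ± 0.03 (SE; limma adjusted p = 0.045). Their part in the calls of Lrtm1 and Ly6f was not tested.

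Apba2 and Ptgds did not pass in the SIRT1 cohort. Apba2 averaged 5.66 ± 0.20 in KO-labelled and 5.65 ± 0.13 in WT livers (SD, n = 18 each), from 5.22 through 5.67 to 6.03 in KO-labelled livers and 5.49, 5.62 and 5.97 in WT livers. The 95% interval of its difference was −0.12 to 0.14 (limma adjusted p = 0.949), with 17 KO-labelled and 18 WT arrays under the 6.00 level. Intensities this low limit how far a level could read below them. Ptgds averaged 7.42 ± 0.15 in KO-labelled and 7.56 ± 0.19 in WT livers, from 7.12 through 7.41 to 7.70 in KO-labelled livers and 7.22, 7.58 and 8.13 in WT livers. Its difference was −0.14 ± 0.06 (SE), with an interval of −0.26 to −0.03 and a limma adjusted p of 0.162. The spread of Ptgds was small in this cohort, and no array came near the 11.40 of the SIRT6 cohort.

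Time by time, limma called 0 of the 24 combinations of gene and time in the SIRT1 cohort after adjustment over all genes and times, with 4 at an unadjusted p under 0.05, and 0% of all 79848 such combinations. The lowest unadjusted p was 0.0185, for Ptgds at ZT8, where it read 7.12, 7.51 and 7.26 in KO-labelled livers, against 7.62, 7.65 and 7.64 in WT livers. Lrtm1 at ZT20 read 7.16, 7.01 and 7.51 in KO-labelled livers, against 8.86, 7.84 and 8.20 in WT livers (unadjusted p = 0.0240). The 3 KO-labelled arrays lay under the 3 WT arrays at 2 times for Lrtm1, 1 for Ptgds, 3 for Ly6f and 0 for Apba2. At no time did the 3 KO-labelled arrays of any of the 4 genes lie above the 3 WT arrays. The share of all genes with 3 arrays apart at a time was not counted, so nothing is read from how often this happened. None of the 4 genes had the higher KO-labelled mean at all 6 times, against 4.48% of all genes.

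**Figure D2:**
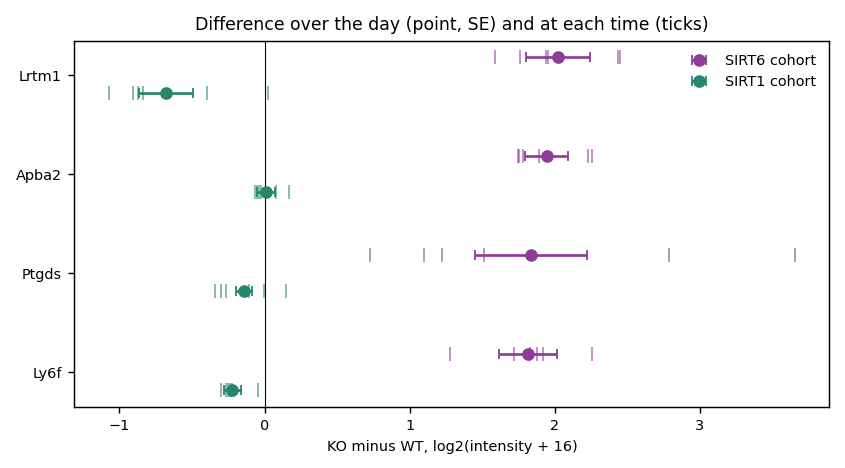
KO-labelled minus WT livers, in log2(intensity + 16), for each of the 4 genes, averaged over the day (points, with bars of 1 SE) and at each of the 6 times (ticks), in the SIRT6 cohort (purple) and the SIRT1 cohort (green). All SIRT6 cohort ticks lie between 0.72 and 3.66, and those of the SIRT1 cohort between −1.07 and 0.17.

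Set side by side, the 4 sets of livers have the order SIRT6 KO-labelled, SIRT1 cohort WT, SIRT6 cohort WT and SIRT1 KO-labelled for Lrtm1, with means of 10.05, 8.70, 8.03 and 8.02. Each of the last 3 means lies within the larger SD of the next one. For Apba2 the means were 7.56 in SIRT6 KO-labelled livers and 5.66, 5.65 and 5.62 in SIRT1 KO-labelled livers and in WT livers of the SIRT1 and SIRT6 cohorts, again closer than their SD. Ptgds had 9.24 in SIRT6 KO-labelled livers, then 7.56 in WT livers of the SIRT1 cohort, 7.42 in SIRT1 KO-labelled and 7.41 in WT livers of the SIRT6 cohort. The last 3 again lie within their SD. Ly6f had 7.72 in SIRT6 KO-labelled livers and 6.08, 5.90 and 5.86 in WT livers of the SIRT1 cohort, WT livers of the SIRT6 cohort and SIRT1 KO-labelled livers, each within the larger SD of the next. The 2 WT sets differ in background and in cohort, which cannot be told apart, and no label says whether the cohorts were normalized together. Bright probe sets also differed between the cohorts, since each array's 99th percentile lay within 3217 to 3430 intensity units in the SIRT6 cohort and within 3440 to 3641 in the SIRT1 cohort, without overlap.

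The label of the KO livers could not be checked from the targeted genes. The probe set of Sirt6 read 7.89 ± 0.10 in KO-labelled and 7.32 ± 0.18 in WT livers of the SIRT6 cohort (SD, n = 18 each), a difference of 0.57 ± 0.05 (SE; limma adjusted p = 8.9e-09). It was thus higher, not lower, under the KO label, with no overlap between the sets. That of Sirt1 read 8.74 ± 0.11 in KO-labelled and 8.74 ± 0.18 in WT livers of the SIRT1 cohort (limma adjusted p = 0.961). The position of these probe sets within the genes is unknown here, and probes beyond the deleted part check nothing. Array medians ran from 43.9 to 52.9 in the SIRT6 cohort and from 44.4 to 53.8 in the SIRT1 cohort, and replicates correlated across genes at 0.903 or more and 0.974 or more. The first principal component held 52.7% of the within-group variance of the SIRT6 cohort, against 17.99% in the SIRT1 cohort. With group means removed, the correlation with that component in the SIRT6 cohort was 0.71 for Apba2, 0.55 for Ly6f, −0.32 for Lrtm1 and −0.36 for Ptgds, against a median size of 0.48 over all genes and 0.84 for Sirt6.

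Within groups, 2 of the 6 relations among the 4 genes passed in the SIRT6 cohort, Lrtm1 with Ptgds and Apba2 with Ly6f. Both calls ended with the first principal component removed. The r of Lrtm1 with Ptgds then moved from 0.47 to 0.40, and that of Apba2 with Ly6f from 0.44 to 0.09. Values with the 12 group means removed were correlated over the 36 arrays of a cohort and tested by permuting within groups, two-sided, with 20 relations (the pairs of the 4 genes and each with Sirt6, in both cohorts) adjusted together. Lrtm1 and Ptgds correlated with r = 0.47 and rho = 0.55 in the SIRT6 cohort (permutation p = 0.00204 for r and 0.00113 for rho, adjusted p = 0.0204 and 0.0113). The r was 0.49 without the 2 arrays farthest from the median of Lrtm1, 0.47 without the 2 farthest for Ptgds, 0.70 in KO-labelled and 0.52 in WT arrays. Apba2 and Ly6f correlated with r = 0.44 and rho = 0.49 (permutation p = 0.00335 and 0.00470, adjusted p = 0.0223 and 0.0313). Here r was 0.57 without the 2 arrays farthest from the median of Apba2, 0.38 without the 2 farthest for Ly6f, 0.85 in KO-labelled and 0.09 in WT arrays. The WT value was read at low intensities, since 13 of the 18 WT arrays lay under the 6.00 level for each gene, and the difference between the genotypes was not tested. The call of Apba2 and Ly6f also ended with quantile normalization (permutation, adjusted p = 0.159), centred medians (0.170) and a pseudocount of 1 (0.066). With the first principal component removed, Lrtm1 and Ptgds had r = 0.40 (permutation p = 0.0105, adjusted p = 0.211). Apba2 and Ly6f then had r = 0.09 (permutation p = 0.559, adjusted p = 0.911). The call of Lrtm1 and Ptgds held with quantile normalization (permutation, adjusted p = 0.029), centred medians (0.024) and pseudocounts of 1 (0.029) and 64 (0.0086).

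Over the 36 arrays the other 4 relations were negative and none passed. Lrtm1 and Apba2 had r = −0.50 and rho = −0.41 (permutation p = 0.0443 and 0.0573, adjusted p = 0.177 and 0.216), with −0.79 in KO-labelled and −0.45 in WT arrays and −0.50 and −0.34 without the 2 arrays farthest for Lrtm1 and for Apba2. Ptgds and Ly6f had r = −0.36 and rho = −0.28 (permutation p = 0.0936 and 0.181, adjusted p = 0.234 and 0.383). Apba2 and Ptgds had r = −0.31 and rho = −0.28 (permutation p = 0.173 and 0.211, adjusted p = 0.346 and 0.383). Lrtm1 and Ly6f, at r = −0.16 and rho = −0.18, were the least related (permutation p = 0.190 and 0.263, adjusted p = 0.346 and 0.415). By genotype the signs were not the same throughout, with r = −0.77 in KO-labelled and 0.27 in WT arrays for Lrtm1 and Ly6f, −0.55 and 0.40 for Ptgds and Ly6f, and −0.55 and −0.15 for Apba2 and Ptgds. With Sirt6, Apba2 had r = 0.58 and rho = 0.63 (permutation p = 0.00025 and 0.00055, adjusted p = 0.00500 and 0.0110), r = 0.63 and 0.54 without the 2 arrays farthest for Apba2 and for Sirt6, 0.59 in KO-labelled and 0.58 in WT arrays. That r was −0.06 with the first component removed, and the call also ended with quantile normalization and with centred medians, at r = 0.25 each (permutation, adjusted p = 0.463 and 0.252). The relations of Lrtm1, Ptgds and Ly6f with Sirt6 did not pass, the strongest being Ly6f at r = 0.35 and rho = 0.42 (permutation p = 0.0164 and 0.0257, adjusted p = 0.0822 and 0.129). None of the 10 relations passed in the SIRT1 cohort, where the lowest adjusted permutation p was 0.191, for Apba2 with Sirt6 at r = −0.44 and Ly6f with Sirt6 at r = −0.51, signs opposite to those in the SIRT6 cohort. For Ly6f rho was −0.28, and r was −0.20 without the 2 arrays farthest for either gene. For Apba2 rho was −0.39, and r was −0.43 and −0.37 without the 2 farthest for Apba2 and for Sirt6. With the first component removed r was −0.09 for Ly6f and −0.03 for Apba2. In the SIRT1 cohort Lrtm1 with Ptgds had r = 0.12 and Apba2 with Ly6f r = 0.20.

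**Figure D3:**
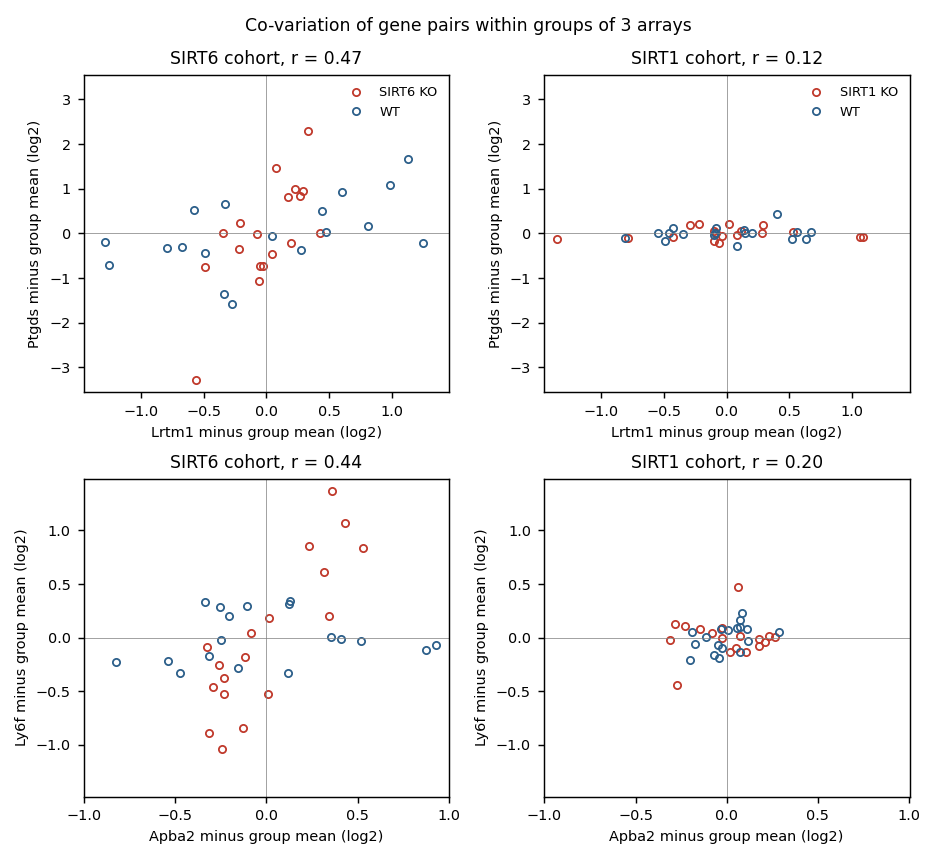
Values minus the mean of their group of 3 arrays, in log2 units, for Ptgds against Lrtm1 (top) and Ly6f against Apba2 (bottom), in the SIRT6 cohort (left) and the SIRT1 cohort (right), each point an array, KO-labelled in red and WT in blue. In the SIRT6 cohort the points rise together with r = 0.47 and 0.44, and in the SIRT1 cohort r is 0.12 and 0.20 over a narrower range of Ptgds and Ly6f.

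At the extremes, some single livers were high or low for both genes of a relation and others were not. The first KO-labelled replicate of ZT12 was the lowest KO-labelled array for Lrtm1, at 9.30, and for Ptgds, at 5.24, while its Apba2 read 7.82 and its Ly6f 8.22, the highest of its group. The first KO-labelled replicate of ZT20 was the highest array for Apba2, at 8.35, and Ly6f, at 9.44, and the third was the highest for Lrtm1, at 10.53, and Ptgds, at 11.40. Among WT livers the second replicate of ZT4 was the highest for Lrtm1, at 9.46, and Ptgds, at 8.84, and the second lowest for Apba2, at 4.88, and Ly6f, at 5.45. The WT array highest for Ly6f, at 6.45, was the second replicate of ZT20, where Apba2 read 5.32, and the one highest for Apba2, at 6.63, was the first replicate of ZT4, where Ly6f read 5.62. These arrays were picked for their values and are described only.

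The genes most like each of the 4 in level over the 36 arrays of the SIRT6 cohort also read higher in KO-labelled livers, so these correlations hold the difference that chose the genes. For Lrtm1 they were Nuggc (r = 0.87), Qpct (0.87) and Tmlhe (0.86), followed by 2 predicted genes. For Apba2 they were Zfp518a (0.94), Cuedc2 (0.89), Sirt6 (0.89), Tceal1 (0.88) and Ly6f (0.87). For Ptgds they were Qpct (0.79), Lsm7 (0.73), Gstt1 (0.73), Lrtm1 (0.70) and Hamp2 (0.69), and for Ly6f they were Apba2 (0.87), Zfp518a (0.86), Cuedc2 (0.84), Zfp334 (0.83) and Tceal1 (0.83). Nuggc differed by 1.54 and Tceal1 by 1.04 between KO-labelled and WT livers of the SIRT6 cohort, against −0.11 and 0.01 in the SIRT1 cohort. In the SIRT1 cohort the r of Zfp518a with Apba2 was −0.16 and that of Nuggc with Lrtm1 0.10.

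With group means removed, other genes were the most alike. They were Cers2 (r = 0.87), Tlcd2 (0.86) and Spp2 (0.85) for Lrtm1, and Sik1 (0.87), Abhd2 (0.86) and Tuba8 (0.86) for Apba2. For Ptgds they were the bile salt pump gene Abcb11 (0.82), Qpct (0.77) and the glucose transporter gene Slc2a2 (0.73), and for Ly6f they were Zfp407 (0.84), Cep350 (0.83) and Tomm40l (0.82). Qpct, which encodes glutaminyl cyclase, was thus near Ptgds on both measures. Among the 13307 other genes Ptgds stood at rank 546 for Lrtm1 and Ly6f at rank 3362 for Apba2, so many genes followed each of them more closely than its partner did.

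No tested genome neighbour of Lrtm1, Apba2 or Ptgds passed in the SIRT6 cohort. Of the 5 genes on either side of each of the 4 genes in the reference gene order, 21 of 40 were measured and 16 were tested, and 2 passed in the SIRT6 cohort, both higher and both beside Ly6f. Over all genes 6.61% passed in that cohort. Cacna2d3, the calcium channel subunit gene that overlaps Lrtm1, averaged 5.50 ± 0.17 in KO-labelled and 5.43 ± 0.14 in WT livers (SD, n = 18 each), ran from 5.05 to 5.71 and from 5.15 to 5.64 there, and was too dim to be tested. Wnt5a and Selenok, the nearest tested genes, differed by 0.16 ± 0.06 and −0.01 ± 0.05 (SE; limma adjusted p = 0.131 and 0.98). Only Wnt5a lies within the 5 places, so Lrtm1 had 1 tested neighbour, with an unadjusted p of 0.0155. Beside Apba2, Mcee differed by −0.10 ± 0.05 and Fam189a1 by 0.05 ± 0.06 (limma adjusted p = 0.348 and 0.775), and 1 of the 6 tested neighbours had an unadjusted p under 0.05. Beside Ptgds, Paxx differed by −0.09 ± 0.09 and the lipocalin gene Lcn12 by 0.09 ± 0.06 (limma adjusted p = 0.681 and 0.449), and 0 of 6 had an unadjusted p under 0.05. In the SIRT1 cohort Nsmce3 beside Apba2 passed, at 0.16 ± 0.04 (SE; limma adjusted p = 0.038).

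Beside Ly6f, 2 of 3 tested neighbours passed, against 6.61% of all genes. The transcribed pseudogene 9030619P08Rik, 4 places away, averaged 10.15 ± 0.38 in KO-labelled and 8.48 ± 1.01 in WT livers (SD, n = 18 each), a difference of 1.68 ± 0.27 (SE), and is named here after its values were seen. Its mean was higher at all 6 times, as in 5.88% of all genes, by 1.13 to 2.27. It had no overlap at any time, and the share of all genes with none was not counted. It stood 11th in the order that chose the 4 genes, so these values are described only. In the SIRT1 cohort it differed by −0.21 ± 0.27. With group means removed its r was 0.09 with Ly6f and 0.64 with Lrtm1, which lies on another chromosome. Ly6g2, 2 places from Ly6f, averaged 10.54 ± 0.14 in KO-labelled and 10.28 ± 0.21 in WT livers and differed by 0.26 ± 0.06 (SE; limma adjusted p = 0.0059). Ly6a2 differed by 0.15 ± 0.09 (limma adjusted p = 0.415). Ly6g, whose start region is the closest to that of Ly6f, averaged 5.33 ± 0.33 in KO-labelled and 5.26 ± 0.22 in WT livers, under the tested range.

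**Figure D4:**
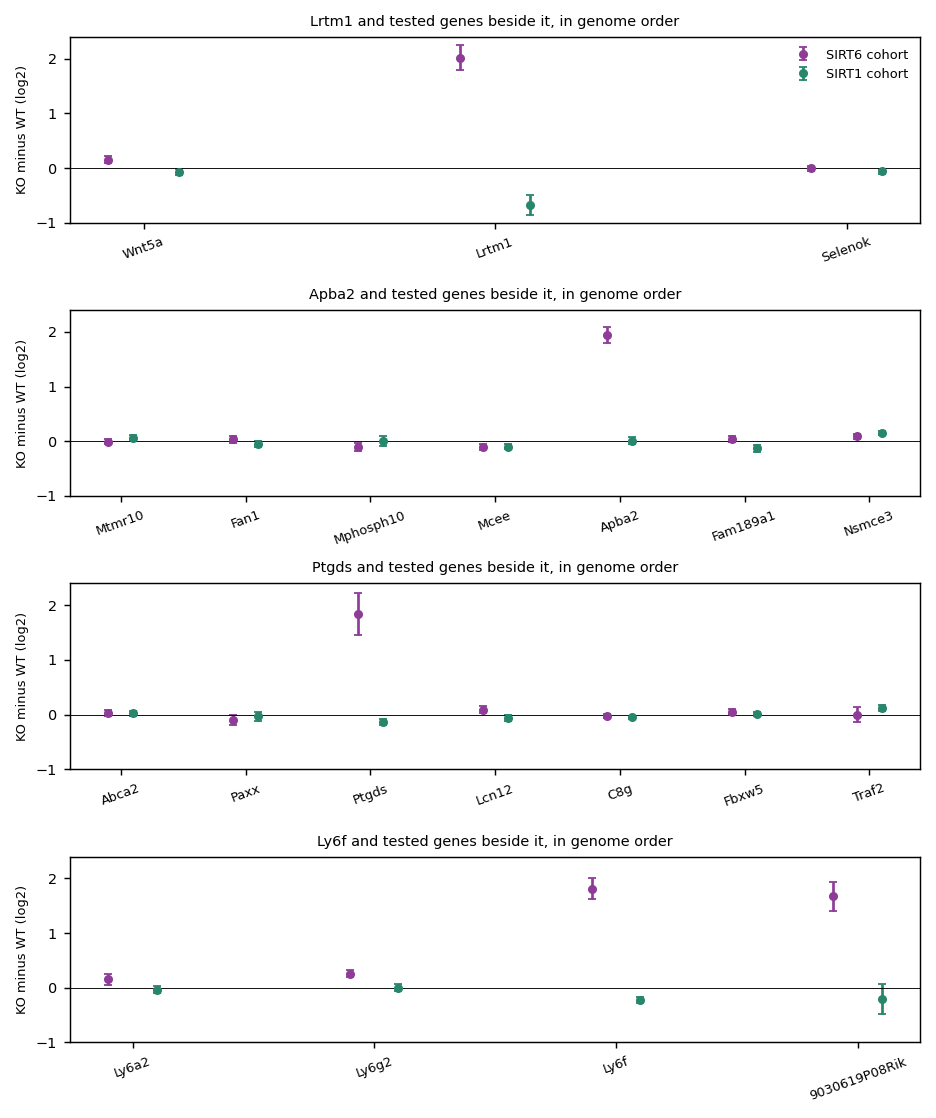
KO-labelled minus WT livers over the day, in log2(intensity + 16) with bars of 1 SE, for each of the 4 genes and the tested genes beside it in genome order, in the SIRT6 cohort (purple) and the SIRT1 cohort (green), with even spacing instead of distance. Apart from the 4 genes, only 9030619P08Rik among the genes drawn lies above 1 in the SIRT6 cohort, at 1.68.

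The gene families of the 4 genes, taken without the 4 themselves, gave 5 calls among 63 tested genes in the SIRT6 cohort (7.94%), near the 6.61% of all genes that passed, so nothing is read from that count. The median difference of all tested genes was 0.0035. Of 26 enzymes and receptors of prostaglandin metabolism 22 were measured and 16 tested. None passed in limma (5 at an unadjusted p under 0.05), and their median difference was −0.0054. The haematopoietic prostaglandin D synthase gene Hpgds, the other enzyme for the product of Ptgds, read 6.15 ± 0.49 in KO-labelled and 6.32 ± 0.58 in WT livers. The receptor gene Ptgdr read 6.30 ± 0.21 in KO-labelled and 6.30 ± 0.17 in WT livers (limma adjusted p = 0.737 for Hpgds and 0.997 for Ptgdr). In the SIRT1 cohort Pparg, the gene of a nuclear receptor that binds prostaglandin metabolites, was lower by −0.46 ± 0.12 (SE; limma adjusted p = 0.034).

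Of 20 lipocalin genes, the family of Ptgds, 12 were tested and 1 was higher with a median of 0.064. That was Orm3, an orosomucoid gene of the acute phase, at 9.62 ± 0.48 in KO-labelled and 8.09 ± 1.41 in WT livers and a difference of 1.53 ± 0.34 (SE; limma adjusted p = 0.0056). Of 29 genes of the Ly6 and uPAR domain family 12 were tested and 0 passed in limma (1 at an unadjusted p under 0.05), with a median of 0.051. That list does not hold Ly6g2 and Ly6a2, which are given among the neighbours of Ly6f and of which Ly6g2 passed. Ly6c2 read 8.12 ± 0.68 in KO-labelled and 7.35 ± 1.26 in WT livers (limma adjusted p = 0.209). Of 26 relatives of Apba2 and partners of its family, 18 were tested, 1 was higher and 2 were lower, with a median of −0.029. The scaffold gene Cask differed by 0.18 ± 0.05 (limma adjusted p = 0.038), Apbb2, another amyloid precursor adaptor, by −0.32 ± 0.05 (3.3e-05) and the scaffold gene Lin7a by −0.37 ± 0.11 (0.049). Of 15 relatives of Lrtm1 and calcium channel subunits 5 were tested and 1 was higher, Lrrc3, at 0.37 ± 0.04 (SE; limma adjusted p = 2.4e-06), with a median of 0.040.

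No marker of other cells passed in either cohort. Over 10 lists of other cell types 65 of 73 genes were measured and 46 tested, and limma called 0 of them, with 0 in the SIRT6 and 2 in the SIRT1 cohort at an unadjusted p under 0.05. The 6 neutrophil markers were too dim to be tested. All 10 Kupffer cell markers were above 0 in the SIRT6 cohort, with a median of 0.19, against 0.0035 over all tested genes. The share of all genes above 0 was not counted. The log2 summed intensity of these markers was 11.45 to 14.03 in KO-labelled and 11.08 to 13.74 in WT arrays. All 9 stellate cell and fibroblast markers were above 0 as well, with a median of 0.086 and sums of 12.10 to 12.91 in KO-labelled and 11.86 to 13.00 in WT arrays. The part of these cells in the difference of the 4 genes was not tested, and in whole liver more cells of a type and more RNA per cell cannot be told apart. The 7 hepatocyte markers, albumin among them, had sums of 15.42 to 15.70 in KO-labelled and 15.47 to 15.72 in WT arrays. Of 7 tested female-biased liver genes 3 were higher, and of 9 tested male-biased ones 2 were higher and 1 was lower. Over all genes 3.39% were called higher and 3.22% lower in the SIRT6 cohort. The 4 measured sex chromosome genes did not pass in limma (2 at an unadjusted p under 0.05). Xist ran from 5.54 to 6.35 in KO-labelled and from 5.55 to 6.40 in WT livers of the SIRT6 cohort. Eif2s3y ran from 8.53 to 9.01 and from 7.91 to 9.06 there. Kdm5d ran from 7.77 to 8.38 and from 7.32 to 8.28, and Uty from 8.43 to 9.01 and from 7.89 to 8.88. A part of sex in the difference was not tested.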

How the data were processed

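The 72 arrays measured total liver RNA, 1 biotin-labelled sample each. Per the submitters' processing notes, Affymetrix Expression Console 1.1.1 and PLIER 2.0 were used, and the deposited values are intensity per probe set, linear by their range. Normalization settings and genome build are named in no source used here. Groups came from the sample titles, and every column matched 1 sample.

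A single gene symbol was annotated to 23521 of the 41345 probe sets (1814 had several, 16010 none), and a gene was read from its 1-symbol probe set of highest mean. Values were taken as log2(intensity + 16). Genes whose mean over the 72 arrays fell in the lowest 40% (below 6.00) were not tested. All 4 genes passed, Apba2 and Ly6f through their KO-labelled arrays of the SIRT6 cohort. Each cohort was fitted with limma 3.58.1 (R 4.3.3) as 12 group means with a trend, Benjamini-Hochberg adjustment over 13308 genes and a threshold of 0.05. A 24 h cosine was fitted to each set of 18 arrays. Correlations used 100000 permutations within groups. The steps were tested on simulated data. Precision is limited by the number of arrays.

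The 4 genes and the gene lists were chosen with earlier results of these data known. Other genes are named by rule: genes of a list past the threshold (up to 4), neighbours that overlap, pass or are nearest, and the most alike genes (5 by level, 3 with group means removed). Predicted genes are not named, except 9030619P08Rik. Hpgds, Ptgdr, Ly6c2, Ly6a2 and Ly6g were named outside the rule for their relation to the 4 genes, and Gsn and Lama3 as the next in order. Xist, Eif2s3y, Kdm5d and Uty were named as the measured sex chromosome genes. Sequences are RefSeq's (GRCm38.p6), and gene order came from the same assembly. Alternatives were quantile normalization, centred array medians, other pseudocounts (1 and 64), a 60% filter or none, no trend, a replicate block, array weights, 1 fit of all 72 arrays, a threshold of 0.01 and each array left out.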

Additional observations from a re-analysis of the deposited data

How the results depend on the processing

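Of 370 alternatives other than leaving out an array, 334 were judged the same, by a rule that depends on the kind of value. Tests of the 4 genes in the SIRT1 cohort and of relations had to keep direction and side of the threshold, and rhythms the side alone. Counts had to stay of similar size, and differences in the SIRT6 cohort had to keep direction and move by less than the within-group SD. The 334 include differences that chose the genes and rhythms that stayed short of the threshold, so nothing about the 4 genes is read from that number. The differences of the 4 genes in the SIRT6 cohort stayed positive in every setting that kept the gene. They were chosen on this difference in these arrays, so its sign is described only. With each array left out it ran from 1.91 to 2.13 for Lrtm1, 1.88 to 2.02 for Apba2, 1.64 to 2.11 for Ptgds and 1.70 to 1.90 for Ly6f. That of Apba2 was 1.27 with a pseudocount of 64. Calls in the SIRT6 cohort numbered 880 (737 to 1030 with each array left out), 867 with centred medians (288 higher, 579 lower), 2630 with array weights (1220 higher, 1410 lower) and 395 at a threshold of 0.01. In the SIRT1 cohort they numbered 302 (150 to 436, the lowest without the third and the highest without the first WT replicate of ZT0), 766 with centred medians (663 higher, 103 lower), 1043 with array weights (574 higher, 469 lower) and 43 at 0.01. The difference of Lrtm1 there was −0.68, and −0.77 to −0.57 with each array left out, with limma adjusted p between 0.019 and 0.083 over these fits. Its call ended with no filter (limma adjusted p = 0.058), no trend (0.054), the replicate block (−0.68, 0.054), 1 fit of 72 arrays (0.086) and at 0.01. That of Ly6f (−0.22; −0.26 to −0.19) ended with quantile normalization (−0.17, limma adjusted p = 0.100), centred medians (−0.18, 0.061), no filter (−0.22, 0.064), 1 fit (−0.22, 0.505) and at 0.01. Apba2 there ran from −0.012 to 0.036 with each array left out, turning sign for 8 of them, and was −0.015 with array weights, and Ptgds ran from −0.17 to −0.11. Calls by single time in the SIRT1 cohort numbered 0 to 8 with an array left out and 1 with the replicate block, none of them of the 4 genes when an array was left out. Families and neighbours had 1 call in the SIRT1 cohort with no filter. Leaving out each KO-labelled replicate of ZT12 in turn, chosen after seeing the data, moved the ZT12 difference of Ptgds between −0.42 and 2.37.

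The r of Apba2 and Ly6f was 0.33 with quantile normalization (adjusted p = 0.159), 0.30 with centred medians (0.170), 0.37 with a pseudocount of 1 (0.066) and 0.090 with the first component removed (0.911), all by permutation. That component also moved the r of Lrtm1 and Ptgds to 0.40, of Lrtm1 and Ly6f to 0.016, of Apba2 and Sirt6 to −0.061, of Ptgds and Sirt6 to 0.18, of Ly6f and Sirt6 to −0.24, and of Apba2 and Ly6f in the SIRT1 cohort to −0.067. Apba2 and Sirt6 missed the threshold with quantile normalization (0.25) and centred medians (0.25), Ly6f and Sirt6 turned to −0.15 and −0.19 there, and Lrtm1 and Sirt6 in the SIRT1 cohort to −0.035 and −0.031. The rhythm of Apba2 in SIRT6 KO-labelled livers passed with quantile normalization (0.65, limma adjusted p = 0.041), the 1 of 120 rhythm alternatives that did. The cause of these changes was not tested. Whether replicate numbers pair the arrays was not tested. With group means removed, same-numbered KO-labelled and WT arrays of a time had a median r of 0.25 in the SIRT6 cohort (−0.36 to 0.74). In the SIRT1 cohort it was 0.03 (−0.28 to 0.37). Of 18 such pairs 11 correlated over 0.1 in the SIRT6 and 6 in the SIRT1 cohort. The best match had the same number for 8 and 7 of 18. The alternative of another probe set per gene gave no value, since each gene has 1. Levels near 6.00 limit what Apba2 and Ly6f can show below it.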
